A study of Rattus norvegicus with 9 samples.

Results

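The tumour necrosis factor (TNF) superfamily consists of cytokine ligands, their receptors and the adaptor proteins that the receptors recruit. The array carried 39 genes of these kinds by name, on 45 probes and 54 spots, among 41012 probes and 43379 spots other than controls. Members were the probes whose deposited gene name began with Tnfsf, Tnfrsf or Traf followed by a digit, together with Tnf, Lta, Ltb, Ltbr, Fas, Tradd, Fadd and Ripk1. By the kind of protein there were 11 ligand genes, 16 receptor genes on 20 probes, 8 adaptor genes on 10 probes, and 4 genes named for a protein that binds or responds to a member. All 45 probes were matched to a gene of the RefSeq table, where Tnfrsf5 is now Cd40, Tnfrsf6 is Fas, Tnfrsf19l is Relt, Tnfsf5ip1 is Psmg2 and Traf4af1 is Knstrn. The match was by accession or, for some probes, by symbol or synonym alone, among them those of Relt, Ripk1 and Traf6.

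RNA came from peripheral blood mononuclear cells (PBMC), the lymphocytes and monocytes of blood, isolated on a Ficoll gradient from saphenous vein blood of male Wistar rats aged 6 months in the fed state. The diets began at 2 months of age and lasted 4 months. The 4 control rats ate standard chow, and the 5 cafeteria rats ate the same chow plus an energy-dense, fatty cafeteria diet. The authors excluded 1 more control, whose RNA yield was low. Each rat gave 1 array, with its RNA in Cy5 and a pool of the samples in Cy3. The dyes were not swapped, so a value is the log2 ratio of a rat to that pool after removal of dye trends. Below, array values stand in the order control 1, 4, 7 and 13, then cafeteria 1, 4, 7, 10 and 13.

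TNF superfamily ligands are mostly trimers, held on the surface of immune cells or shed from it. A trimer gathers several receptor chains, whose cytoplasmic parts bind TRAF proteins directly or, in the receptors with a death domain, bind Tradd or Fadd. TRAF and Ripk1 complexes lead to NF-kB and MAP kinase activation, whereas Fadd complexes activate caspases and cell death. In blood, the pathway regulates the survival, activation and removal of lymphocytes and monocytes.

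The genes Lta, Tnf and Ltb, 3 of the ligands, lie beside each other in the major histocompatibility complex. Their probes matched the rn4 build at chr20:3659234-3659293, chr20:3662706-3662765 and chr20:3666709-3666768, and yet they differed in detection, as described next. The 250 bases before their starts are shown, read 5′ to 3′ from RefSeq's GRCr8 build on each gene's own strand. The windows are chr20:3623277-3623526 on the plus strand for Lta, chr20:3626435-3626684 on the plus strand for Tnf, and chr20:3634055-3634304 on the minus strand for Ltb. Capitals mark the NF-kB consensus and the letters TATAAA, each searched on both strands.
Lta: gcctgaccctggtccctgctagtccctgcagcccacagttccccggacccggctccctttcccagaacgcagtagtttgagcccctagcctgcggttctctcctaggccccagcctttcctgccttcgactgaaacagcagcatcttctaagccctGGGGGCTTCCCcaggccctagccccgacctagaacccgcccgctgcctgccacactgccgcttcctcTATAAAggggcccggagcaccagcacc
Tnf: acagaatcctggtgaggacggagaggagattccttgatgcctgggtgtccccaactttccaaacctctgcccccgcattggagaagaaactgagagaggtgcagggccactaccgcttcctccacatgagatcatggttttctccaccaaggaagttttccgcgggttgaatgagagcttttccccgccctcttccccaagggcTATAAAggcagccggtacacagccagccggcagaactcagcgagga
Ltb: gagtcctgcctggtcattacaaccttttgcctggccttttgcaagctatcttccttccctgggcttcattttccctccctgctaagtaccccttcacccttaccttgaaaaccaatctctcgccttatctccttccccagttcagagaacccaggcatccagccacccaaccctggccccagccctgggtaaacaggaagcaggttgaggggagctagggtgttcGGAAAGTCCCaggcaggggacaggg
The Lta window held the NF-kB consensus at 2 overlapping places and TATAAA once, the Ltb window held the NF-kB consensus once, and the Tnf window held TATAAA only. Of the 39 genes, 29 had a window in the table. The NF-kB consensus was in 6 of these 29 (20.7%) and in 2117 of 33469 windows of all genes (6.33%), and TATAAA was in 6 of 29 (20.7%) and in 4328 (12.9%). The members with the NF-kB consensus were Lta, Ltb, Fas, Tnfrsf8, Traf3 and Traf7. These matches describe letters in a window and were not tested for binding or for a relation to detection.

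Adaptors were detected most fully and ligands least. A probe counts as detected on an array when at least 50% of its spots had Cy5 well above background in the scanner software's call. Between 37 and 40 of the 45 probes (82.2% to 88.9%) were detected per array, against 58.7% to 66.6% of all probes. All 10 adaptor probes and all 4 probes of interacting proteins were detected on each of the 9 arrays. Receptors had 17 or 18 of 20 probes detected per array, and ligands had 6 to 9 of 11 (54.5% to 81.8%). Over the arrays, 36 member probes were detected on all 9, whereas 54.6% of all probes were.

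Array by array, the probes detected numbered 37, 38, 39 and 37 in the controls and 37, 40, 38, 38 and 39 in the cafeteria-fed animals. The ligand probes detected were 6, 7, 7 and 6 in the controls and 6, 9, 6, 6 and 7 in the cafeteria-fed animals. Cafeteria 4 had the 9, because Tnfsf10 (TRAIL, a ligand that triggers cell death) and Tnfsf15 (TL1A, a ligand that stimulates T cells) passed on that array alone. Their Cy5 signals over local background were 26.4 and 27.0 there. On cafeteria 13, where neither passed, they were 36.8 and 42.1, so these calls near the limit did not follow the signal. The 2 groups overlapped in both counts.

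**Figure D1:**
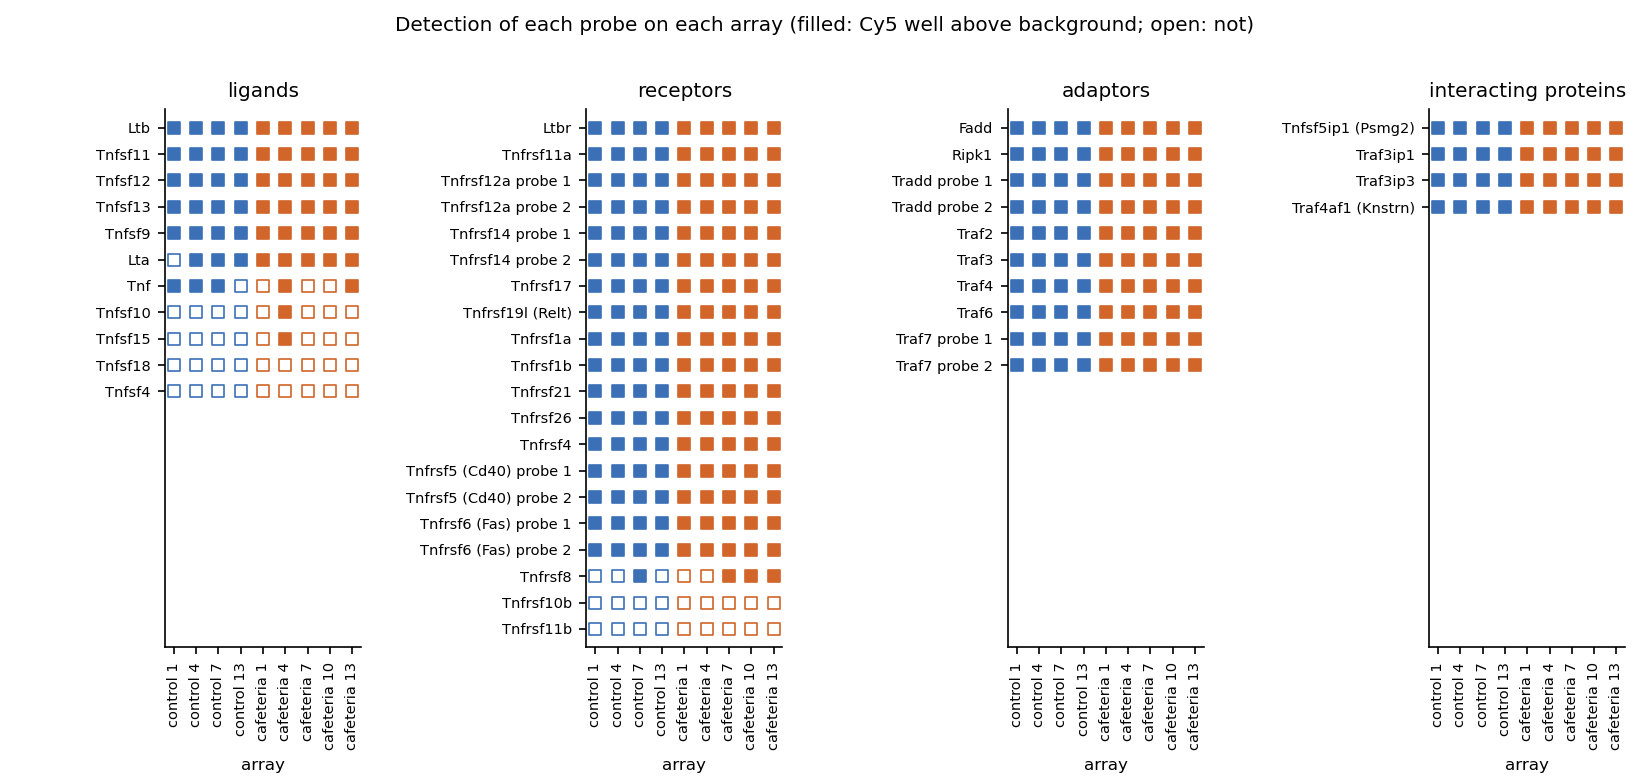
Detection of the 45 member probes (rows, by class) on the 9 arrays (columns, blue control and orange cafeteria). Filled squares are probes with Cy5 well above background and open squares are probes without; all adaptor rows are filled, and the open squares lie in 6 ligand and 3 receptor rows.

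Ltb, which forms a membrane-bound lymphotoxin with Lta, was detected on all 9 arrays, as were Tnfsf9 (4-1BB ligand), Tnfsf11 (RANK ligand), Tnfsf12 (TWEAK) and Tnfsf13 (APRIL). Lta was detected on 8 arrays, all but control 1. Tnf itself, the inflammatory cytokine that names the family, was near the limit. Its 10 spots passed as 10, 5, 5 and 1 in the controls and as 1, 9, 2, 3 and 5 in the cafeteria-fed animals, so that it was detected on 3 of 4 control and 2 of 5 cafeteria arrays. Its Cy5 signal over local background was 59.9, 32.6, 23.1 and 38.6 intensity units in the controls and 34.8, 30.8, 40.6, 35.2 and 80.5 in the cafeteria-fed animals. Tnfsf4 (OX40 ligand) and Tnfsf18 (GITR ligand) were not well above background on any array.

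Among receptors, 17 probes of 13 genes were detected on all 9 arrays. Tnfrsf8 (CD30, found on activated lymphocytes) was detected on 4 arrays, control 7 and cafeteria 7, 10 and 13. Its Cy5 signal over local background was 41.3, 29.4, 23.1 and 41.1 in the controls. In the cafeteria-fed animals it was 26.1, 24.4, 37.1, 41.0 and 58.2. Control 7, which passed, was the lowest of the 9, so the calls did not follow the order of the signal. Tnfrsf10b, a death receptor for TRAIL, and Tnfrsf11b (osteoprotegerin), a secreted decoy for RANK ligand, were not well above background on any array. Probes had to be detected on at least 4 arrays to be tested, which kept 39 member probes of 33 genes, and 25808 probes in all. The untested probes were those of Tnfsf4, Tnfsf10, Tnfsf15, Tnfsf18, Tnfrsf10b and Tnfrsf11b.

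No member passed the test for a difference between the diets. With limma over all 25808 probes and Benjamini-Hochberg adjustment at 0.05, 0 member probes and 0 probes in all (0%) were called, and the lowest adjusted p of a member was 0.546. At an unadjusted p under 0.05, 3 of the 39 member probes (7.69%) stood apart, all lower in the cafeteria group, beside 5.7% of all probes (1472, of which 491 were higher and 981 lower). They were Relt, Knstrn and Ripk1. The groups did not overlap in 1 member probe (2.56%), that of Knstrn, beside 2.03% of all probes. Both shares were close to those of the whole array.

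The intervals bounded the size of most differences in these ratios. The background offset draws the ratios of dim probes toward 0, so the bounds concern the ratios and not amounts of RNA. The 95% interval of the log2 fold change, cafeteria minus control, lay within -1 and 1 for 38 of the 39 probes and within -0.5 and 0.5 for 30. The median half-width was 0.24. The exception was Tnfrsf17, with a half-width of 1.22.

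**Figure D2:**
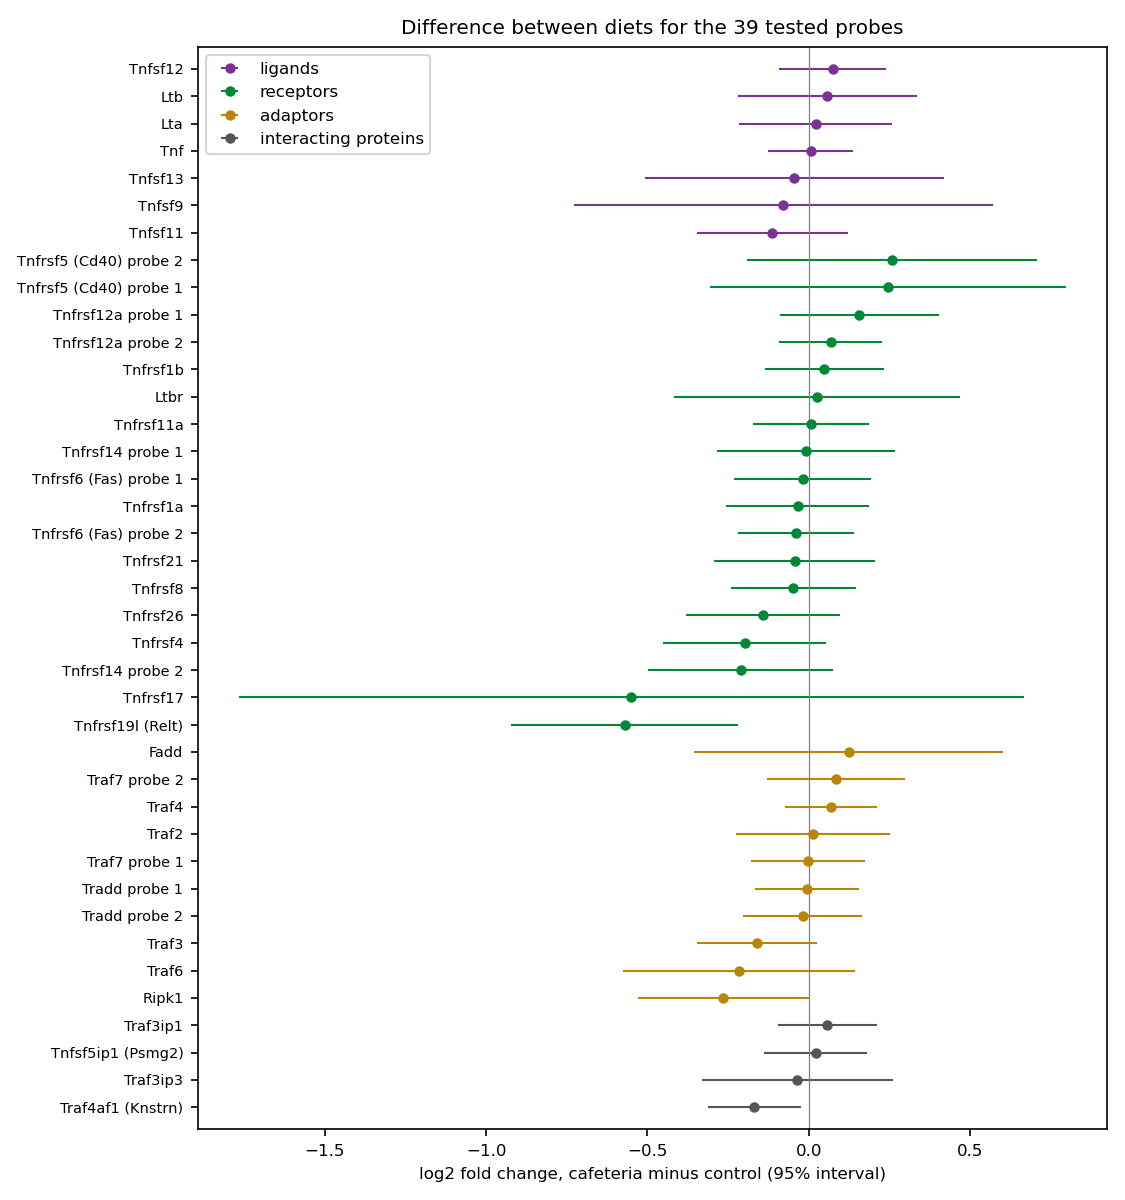
Log2 fold change, cafeteria minus control, with its 95% interval from limma (n = 4 control and 5 cafeteria arrays) for each of the 39 tested member probes, coloured by class; probe 1 and probe 2 are different probes of a gene. Intervals of Relt and Knstrn lie below 0, that of Ripk1 ends at 0, and that of Tnfrsf17 is the widest of the 39.

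Ligand levels overlapped between the diets. The log2 ratio of Ltb was -0.082, -0.13, -0.57 and 0.0052 in the controls and -0.21, 0.079, -0.061, -0.16 and -0.33 in the cafeteria-fed animals. Control 7 was the lowest of the 9 arrays, and the others were mixed between groups. The difference was 0.058 (SE 0.13, 95% interval -0.22 to 0.34, unadjusted p = 0.654, adjusted p = 0.988).

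Tnf ratios lay close to 0 on all arrays, at 0.040, -0.018, -0.068 and 0.0091 in the controls and 0.015, -0.011, -0.019, -0.042 and 0.039 in the cafeteria-fed animals, with a difference of 0.0055 (SE 0.059, 95% interval -0.13 to 0.14, unadjusted p = 0.928, adjusted p = 0.996). Tnf was well above background on only 5 arrays, and a dim probe's ratio is drawn toward 0 by the background offset, so the narrow interval concerns these signals and not the amount of Tnf RNA. The log2 ratio of Tnfsf9, a co-stimulator of T cells, varied most among the named ligands, at 0.11, -0.55, 0.74 and -0.41 in the controls and 0.63, -0.66, -0.045, -0.35 and -0.099 in the cafeteria-fed animals. Each group held animals well above and well below the reference, and the difference was -0.078 (SE 0.29, 95% interval -0.73 to 0.57, unadjusted p = 0.795, adjusted p = 0.995).

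Tnfsf11, known from osteoclast formation and made by activated T cells, had log2 ratios of -0.053, 0.076, 0.045 and 0.16 in the controls and -0.060, 0.13, 0.080, -0.39 and -0.039 in the cafeteria-fed animals. Cafeteria 10 was the lowest, and the difference was -0.11 (SE 0.11, 95% interval -0.35 to 0.12, unadjusted p = 0.307, adjusted p = 0.984). Tnfsf12, which binds Tnfrsf12a, had log2 ratios of -0.12, -0.11, -0.29 and -0.091 in the controls and -0.20, -0.13, 0.042, -0.031 and -0.090 in the cafeteria-fed animals. The groups overlapped, and the difference was 0.074 (SE 0.075, 95% interval -0.092 to 0.24, unadjusted p = 0.346, adjusted p = 0.984). The remaining tested ligands, Lta and Tnfsf13, had log2 fold changes of 0.021 and -0.045.

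The receptors of TNF and lymphotoxin overlapped between the groups. Tnfrsf1a, the death-domain receptor of TNF on most cells, had log2 ratios of -0.055, 0.17, 0.10 and -0.28 in the controls and -0.13, 0.11, -0.15, -0.064 and -0.010 in the cafeteria-fed animals, with a difference of -0.034 (SE 0.10, 95% interval -0.26 to 0.19, unadjusted p = 0.74, adjusted p = 0.992). Tnfrsf1b, the TNF receptor of leukocytes that lacks a death domain, had -0.099, 0.029, 0.085 and -0.048 in the controls and -0.043, 0.18, 0.042, 0.15 and -0.13 in the cafeteria-fed animals, with a difference of 0.049 (SE 0.083, 95% interval -0.13 to 0.23, unadjusted p = 0.568, adjusted p = 0.987). In both, the ranges of the 2 groups overlapped, with the controls more spread for Tnfrsf1a and the cafeteria animals for Tnfrsf1b. Ltbr, the lymphotoxin beta receptor, varied more between animals, at -0.045, 0.13, -0.43 and -0.37 in the controls and -0.72, 0.31, -0.36, 0.083 and -0.086 in the cafeteria-fed animals, with a difference of 0.025 (SE 0.20, 95% interval -0.42 to 0.47, unadjusted p = 0.902, adjusted p = 0.996). Cafeteria 1 was the lowest and cafeteria 4 the highest of the 9.

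Fas, the receptor through which Fas ligand removes lymphocytes, was measured by 2 probes. The brighter probe had log2 ratios of 0.31, 0.14, 0.35 and 0.017 in the controls and 0.38, 0.16, 0.090, 0.060 and 0.24 in the cafeteria-fed animals, and its difference was -0.019 (SE 0.096, 95% interval -0.23 to 0.19, unadjusted p = 0.846, adjusted p = 0.996). The dimmer probe differed by -0.039. The groups overlapped at both probes.

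Relt, a receptor found mainly in lymphoid tissue, had the lowest p of the members. Its log2 ratio was 0.35, 0.33, 0.19 and 0.17 in the controls and 0.20, -0.10, -0.52, -0.64 and -0.48 in the cafeteria-fed animals (chr1:158296368-158296426, rn4, by the deposited annotation). Controls lay between 0.17 and 0.35 and 4 of the 5 cafeteria animals lay below them, while cafeteria 1, at 0.20, lay among them. The difference was -0.57 (SE 0.16, 95% interval -0.92 to -0.22, unadjusted p = 0.00456, adjusted p = 0.546), so it did not pass the adjusted threshold.

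The sign of Relt held in all 24 alternative analyses, with log2 fold changes of -0.84 to -0.44, and the lowest adjusted p was 0.185, without cafeteria 1. Slides 3 and 5 each held a control and a cafeteria array: within them the difference was -0.15 and -0.81. Fitting the slide as a block gave -0.48 (unadjusted p = 0.0633, adjusted p = 1.00, limma). That fit rests on the pairs of slides 3 and 5 alone. Its p therefore leans on the variance limma pools over probes and says little of the spread between rats. Beside these values, the mean log2 ratio of the 10 tested T cell markers was 0.14, -0.18, 0.054 and 0.19 in the controls and 0.17, -0.061, -0.18, -0.25 and -0.47 in the cafeteria-fed animals. Cafeteria 7, 10 and 13, where Relt was lowest, were 3 of the 4 arrays with the lowest T cell markers. The mean of the 8 cytotoxic and NK cell markers was -0.15, -0.41, -0.31 and -0.10 in the controls and -0.22, -0.18, 0.63, 0.0061 and 0.23 in the cafeteria-fed animals, and that of the 8 B cell markers was -0.24, 0.20, -0.34 and -0.30 in the controls and -0.26, 0.028, 0.099, 0.31 and 0.34 in the cafeteria-fed animals. These 3 cafeteria arrays were the highest of the 9 in the first list and were 3 of the 4 highest in the second. The part of any of these cells in the Relt difference was not tested, and in bulk RNA fewer cells of a type and less RNA per cell cannot be told apart.

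Tnfrsf4 (OX40), a co-stimulatory receptor of activated T cells, had log2 ratios of 0.42, 0.040, -0.18 and -0.072 in the controls and -0.17, -0.14, -0.13, -0.25 and -0.044 in the cafeteria-fed animals. Control 1 was far above the rest, and the difference was -0.20 (SE 0.11, 95% interval -0.45 to 0.052, unadjusted p = 0.108, adjusted p = 0.959). Tnfrsf12a (Fn14), the receptor of TWEAK, had -0.18, -0.080, -0.014 and 0.015 in the controls and 0.14, -0.15, 0.29, -0.12 and 0.30 in the cafeteria-fed animals at the brighter of its 2 probes, with a difference of 0.16 (SE 0.11, 95% interval -0.090 to 0.40, unadjusted p = 0.188, adjusted p = 0.974). The other probe gave 0.068. Tnfrsf26 had 0.28, -0.037, 0.28 and 0.27 in the controls and 0.17, 0.20, 0.086, 0.068 and -0.24 in the cafeteria-fed animals, with a difference of -0.14 (SE 0.11, 95% interval -0.38 to 0.096, unadjusted p = 0.215, adjusted p = 0.974). Its probe was matched by symbol alone, and the deposited annotation describes a cDNA clone with an apparent retained intron. All 3 receptors overlapped between the groups.

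Among the remaining receptors, Tnfrsf8, Tnfrsf11a (RANK), Tnfrsf14 (HVEM) and Tnfrsf21 (death receptor 6) had log2 fold changes of -0.048 to 0.0071 at the brighter or only probe. The 2 probes of Tnfrsf14 gave -0.0088 and -0.21. Tnfrsf17 (BCMA), the receptor of plasma cells for APRIL, and Cd40, the receptor of B cells and monocytes for CD40 ligand, are described here after their values were seen. Tnfrsf17 spread over a wider range than any other tested member, with log2 ratios of 1.13, -0.43, 0.24 and -1.09 in the controls and -1.69, -1.34, 0.94, -0.41 and -0.43 in the cafeteria-fed animals. The difference was -0.55 (SE 0.55, 95% interval -1.77 to 0.67, unadjusted p = 0.339, adjusted p = 0.984), and it was -2.83 within slide 3 and 0.68 within slide 5. Cd40 had -0.46, 0.34, -0.013 and -0.53 in the controls and -0.49, -0.19, -0.021, 0.51 and 0.59 in the cafeteria-fed animals at its brighter probe. The differences at its probes were 0.24 and 0.26, with cafeteria 10 and 13 highest at the brighter one.

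**Figure D3:**
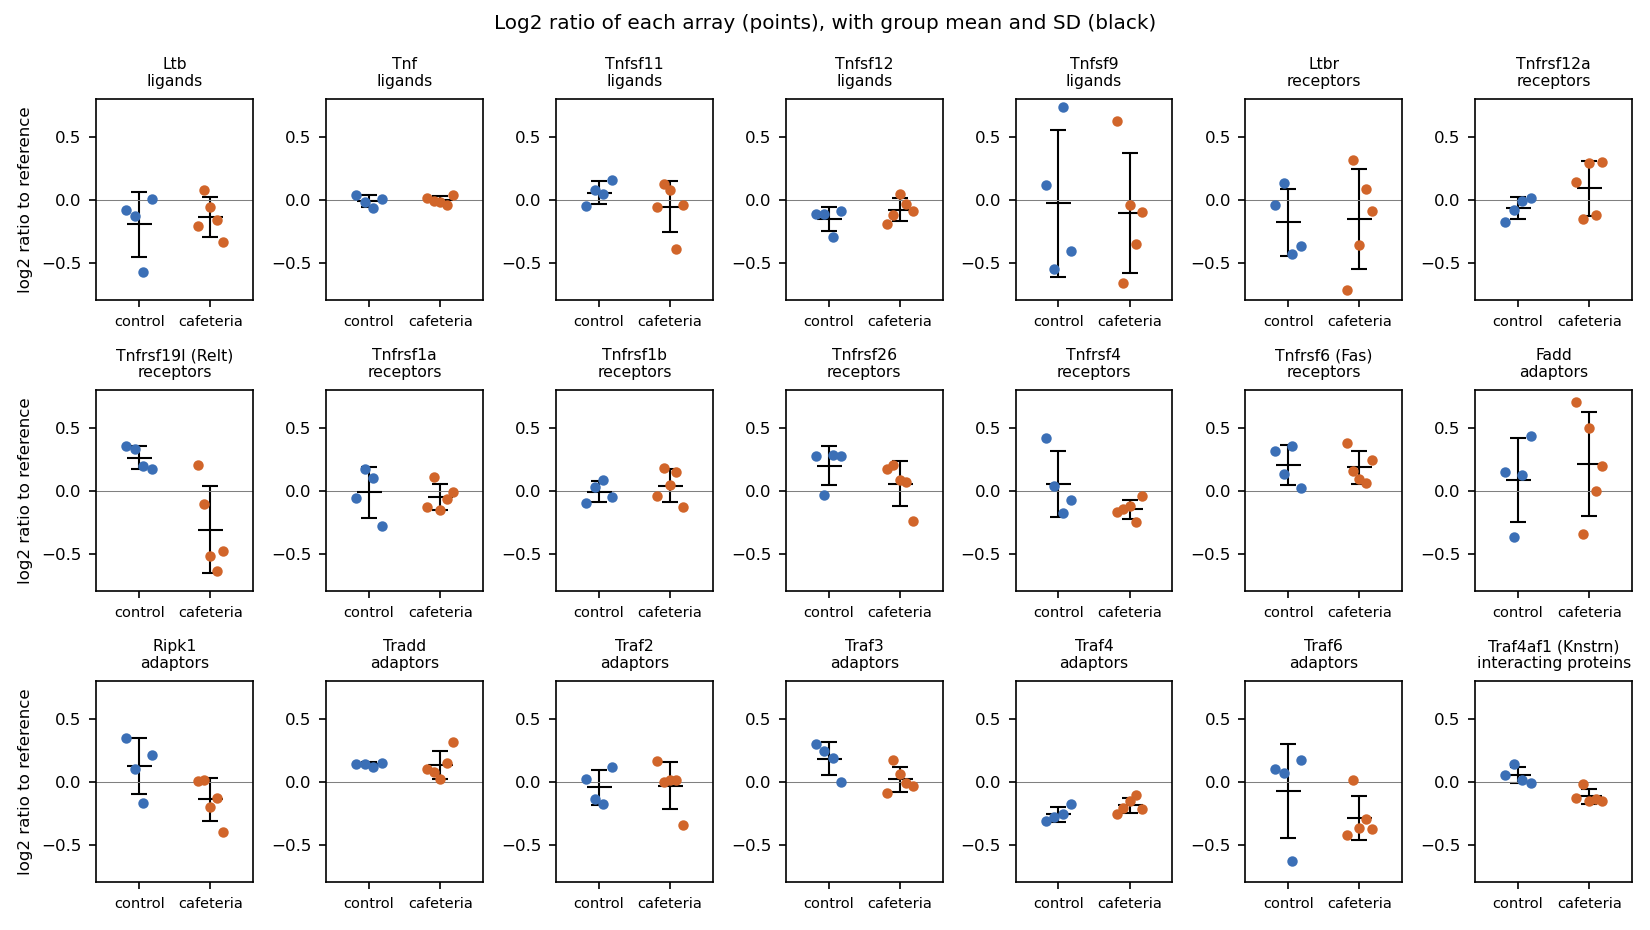
Log2 ratio to the reference pool for 21 of the members given array by array (Tnfrsf17 and Cd40 are not drawn), with 1 point per array (blue, 4 control; orange, 5 cafeteria), and the group mean with SD in black, all on the same axis. The points of the groups overlap in each panel except that of Knstrn, and 4 of the 5 Relt points of cafeteria animals lie below the controls.

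Among adaptors, Ripk1, the kinase that joins TNF receptor signalling to NF-kB and to cell death, had log2 ratios of 0.35, 0.10, -0.17 and 0.22 in the controls and 0.0018, 0.014, -0.20, -0.13 and -0.40 in the cafeteria-fed animals. Cafeteria animals were at or below 0.014 whereas 3 of the 4 controls were at or above 0.10, and control 7 lay within the cafeteria range. The difference was -0.26 (SE 0.12, 95% interval -0.53 to -0.00034, unadjusted p = 0.0498, adjusted p = 0.875). Within slides 3 and 5 it was -0.34 and -0.34. The sign held in all 24 alternatives, with log2 fold changes of -0.36 to -0.16, and the unadjusted p was under 0.05 in 7 of them.

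Traf6, the TRAF protein shared with interleukin-1 and Toll-like receptors, had log2 ratios of 0.099, 0.066, -0.63 and 0.17 in the controls and -0.42, 0.0095, -0.37, -0.30 and -0.37 in the cafeteria-fed animals. Control 7 was the lowest of the 9 while the other 3 controls were above all cafeteria animals. The difference was -0.22 (SE 0.16, 95% interval -0.58 to 0.14, unadjusted p = 0.21, adjusted p = 0.974). Within slides 3 and 5 it was -0.52 and -0.47, and with slide as a block -0.49 (unadjusted p = 0.0151, adjusted p = 1.00, limma). The 2 slides did not hold control 7, and the block fit rests on their pairs alone. Its p therefore leans on the variance limma pools over probes and says little of the spread between rats.

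Traf3, which restrains non-canonical NF-kB signalling, had log2 ratios of 0.30, 0.24, 0.19 and -0.0045 in the controls and -0.088, 0.17, 0.057, -0.013 and -0.032 in the cafeteria-fed animals, with a difference of -0.16 (SE 0.084, 95% interval -0.35 to 0.026, unadjusted p = 0.0838, adjusted p = 0.947). Traf4 had -0.31, -0.28, -0.26 and -0.17 in the controls and -0.26, -0.21, -0.15, -0.10 and -0.22 in the cafeteria-fed animals, with a difference of 0.069 (SE 0.065, 95% interval -0.074 to 0.21, unadjusted p = 0.309, adjusted p = 0.984). Traf2, which joins TNF receptor complexes, had 0.022, -0.14, -0.18 and 0.12 in the controls and 0.16, 0.00021, 0.015, 0.010 and -0.34 in the cafeteria-fed animals, with a difference of 0.014 (SE 0.11, 95% interval -0.22 to 0.25, unadjusted p = 0.902, adjusted p = 0.996). The groups overlapped for all 3.

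Tradd and Fadd are the death-domain adaptors of the TNF receptor and of Fas. Tradd had log2 ratios of 0.14, 0.14, 0.12 and 0.15 in the controls and 0.10, 0.075, 0.018, 0.15 and 0.32 in the cafeteria-fed animals, with a difference of -0.0046 (SE 0.073, 95% interval -0.17 to 0.16, unadjusted p = 0.951, adjusted p = 0.996), and its other probe differed by -0.018. Fadd varied far more, at 0.15, -0.37, 0.13 and 0.43 in the controls and 0.70, -0.34, 0.50, -0.0059 and 0.19 in the cafeteria-fed animals, with a difference of 0.12 (SE 0.22, 95% interval -0.35 to 0.60, unadjusted p = 0.578, adjusted p = 0.987). Cafeteria 1 was the highest, and cafeteria 4 and control 4 were the lowest. The 2 probes named Traf7 gave -0.0014 and 0.083, and the second is described in the deposited annotation as Rab26.

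Of the 4 genes named for a protein that binds or responds to a member, Knstrn, a protein of the mitotic spindle first named as a partner of Traf4, was the only tested member with groups that did not overlap. Its log2 ratio was 0.057, 0.14, 0.015 and -0.0077 in the controls and -0.13, -0.016, -0.16, -0.14 and -0.15 in the cafeteria-fed animals. Each control was above each cafeteria animal, with control 13 and cafeteria 4 nearly level. The probe was dim. Its Cy5 signal over local background was 48.4 to 96.9 in the controls and 62.2 to 108 in the cafeteria-fed animals. The difference in log2 ratio was -0.17 (SE 0.065, 95% interval -0.31 to -0.025, unadjusted p = 0.0253, adjusted p = 0.763). It kept its sign in all 22 alternatives that measured it, but from the Cy5 channel alone, without the reference, it was -0.0064 (unadjusted p = 0.945, limma). Psmg2, a proteasome assembly factor, Traf3ip1, a protein of cilia, and Traf3ip3, a protein of lymphocytes, had log2 fold changes of -0.035 to 0.058.

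Set side by side, the classes differed in detection, while the median difference between diets of each class lay close to 0. The median log2 fold change, with 1 probe per gene, was 0.0055 over 7 ligand genes, -0.027 over 14 receptor genes and -0.0030 over 8 adaptor genes. Over all 22070 genes tested it was 0.0076. Counts of genes higher and lower were 4 and 3 for ligands, 5 and 9 for receptors, and 3 and 5 for adaptors. Over the 33 member genes 14 were higher and 19 lower, and 47.1% of all genes were lower. These splits differed between analyses. Over the 39 probes, 17 were higher and 22 lower, against 25 and 14 with median centring, 22 and 17 from the Cy5 channel alone, and 26 and 9 of 35 probes in the authors' deposited value table. The median of all probes tested was 0.0070, 0.064, 0.016 and 0.13 in these 4 analyses. Leaving out single arrays also turned the split, to 22 and 17 without control 1 and to 21 and 18 without cafeteria 7.

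Several members varied widely between animals of the same diet. Members were then set against markers of the cell types in blood over all arrays. Diet was not taken into account, so a relation mixes differences between the diets with variation within a diet. Each of the 33 genes was compared with the mean log2 ratio of each of 8 lists of cell type markers over the 9 arrays, members left out of the lists. Of these 264 relations, 8 passed an adjusted p under 0.05 by Pearson's r, and 2 of them also by Spearman's rho; the genes below are named because they passed or were named above. All values of an array share its normalization, and slides, with at most 2 arrays, were too small for values within a slide.

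Tnfrsf17 followed the mean of the 4 plasma cell markers, with Pearson's r = 0.97 (exact permutation p = 1.65e-05, adjusted p = 0.00437) and Spearman's rho = 0.97 (exact permutation p = 0.000165, adjusted p = 0.0437). Without control 1 and cafeteria 4, the arrays farthest from the median of the markers, r was 0.94. The mean of the plasma cell markers was 0.56, -0.45, -0.050 and -0.52 in the controls and -0.76, -0.78, 0.43, -0.072 and -0.12 in the cafeteria-fed animals. Cafeteria 1 and 4 were lowest, and control 1 and cafeteria 7 highest, in both the receptor and the mean of the list. Single markers differed. On cafeteria 1, where Tnfrsf17 was lowest, Jchain was -1.32, Mzb1 -1.27, Prdm1 -0.62 and Sdc1 0.17.

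Cd40 ran against the mean of the 10 T cell markers, with Pearson's r = -0.93 (exact permutation p = 0.000234, adjusted p = 0.0309) and Spearman's rho = -0.95 (exact permutation p = 0.000353, adjusted p = 0.0466), and r was -0.89 without control 13 and cafeteria 13. With the 8 B cell markers, the cells best known for Cd40, the relation did not pass, with Pearson's r = 0.87 (exact permutation p = 0.0045, adjusted p = 0.132) and Spearman's rho = 0.75 (exact permutation p = 0.0255, adjusted p = 0.481), and r was 0.98 without control 7 and control 13. Tnfrsf26 went with the T cell list at r = 0.90 and against the B cell list at r = -0.85, both passing by Pearson's r (exact permutation, adjusted p = 0.0486) but not by Spearman's rho (0.78 and -0.90, adjusted p = 0.35 and 0.134). Without the 2 arrays farthest from the median of the markers, r was 0.77 and -0.79.

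Ltbr, Tnfsf13 and Tnfrsf21 were high where the mean of the 7 monocyte markers was high, and Fadd was low there. The markers did not all move together. On cafeteria 1 and cafeteria 4, Cd14 was -1.56 and 0.80, whereas Itgam was 0.26 and 0.039. For Ltbr the relation was Pearson's r = 0.91 (exact permutation p = 0.00126, adjusted p = 0.0486) and Spearman's rho = 0.85 (exact permutation p = 0.00607, adjusted p = 0.229). For Tnfsf13 it was Pearson's r = 0.90 (exact permutation p = 0.000496, adjusted p = 0.0437) and Spearman's rho = 0.92 (exact permutation p = 0.00131, adjusted p = 0.115). For Tnfrsf21 it was Pearson's r = 0.90 (exact permutation p = 0.00147, adjusted p = 0.0486) and Spearman's rho = 0.88 (exact permutation p = 0.00308, adjusted p = 0.162), and for Fadd it was Pearson's r = -0.90 (exact permutation p = 0.0012, adjusted p = 0.0486) and Spearman's rho = -0.87 (exact permutation p = 0.00451, adjusted p = 0.198). Without cafeteria 1 and 4, r was 0.79, 0.84, 0.79 and -0.78. The mean of the monocyte markers was 0.25, 0.41, -0.24 and -0.074 in the controls and -0.64, 0.52, -0.44, 0.21 and -0.28 in the cafeteria-fed animals, with cafeteria 1 lowest and cafeteria 4 highest. Relt had r = -0.77 with the cytotoxic and NK cell list, 0.74 with the T cell list and -0.71 with the B cell list, none of which passed (exact permutation, adjusted p = 0.223, 0.395 and 0.49). Ripk1 had r = 0.74 with the T cell list, which did not pass (exact permutation, adjusted p = 0.392).

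**Figure D4:**
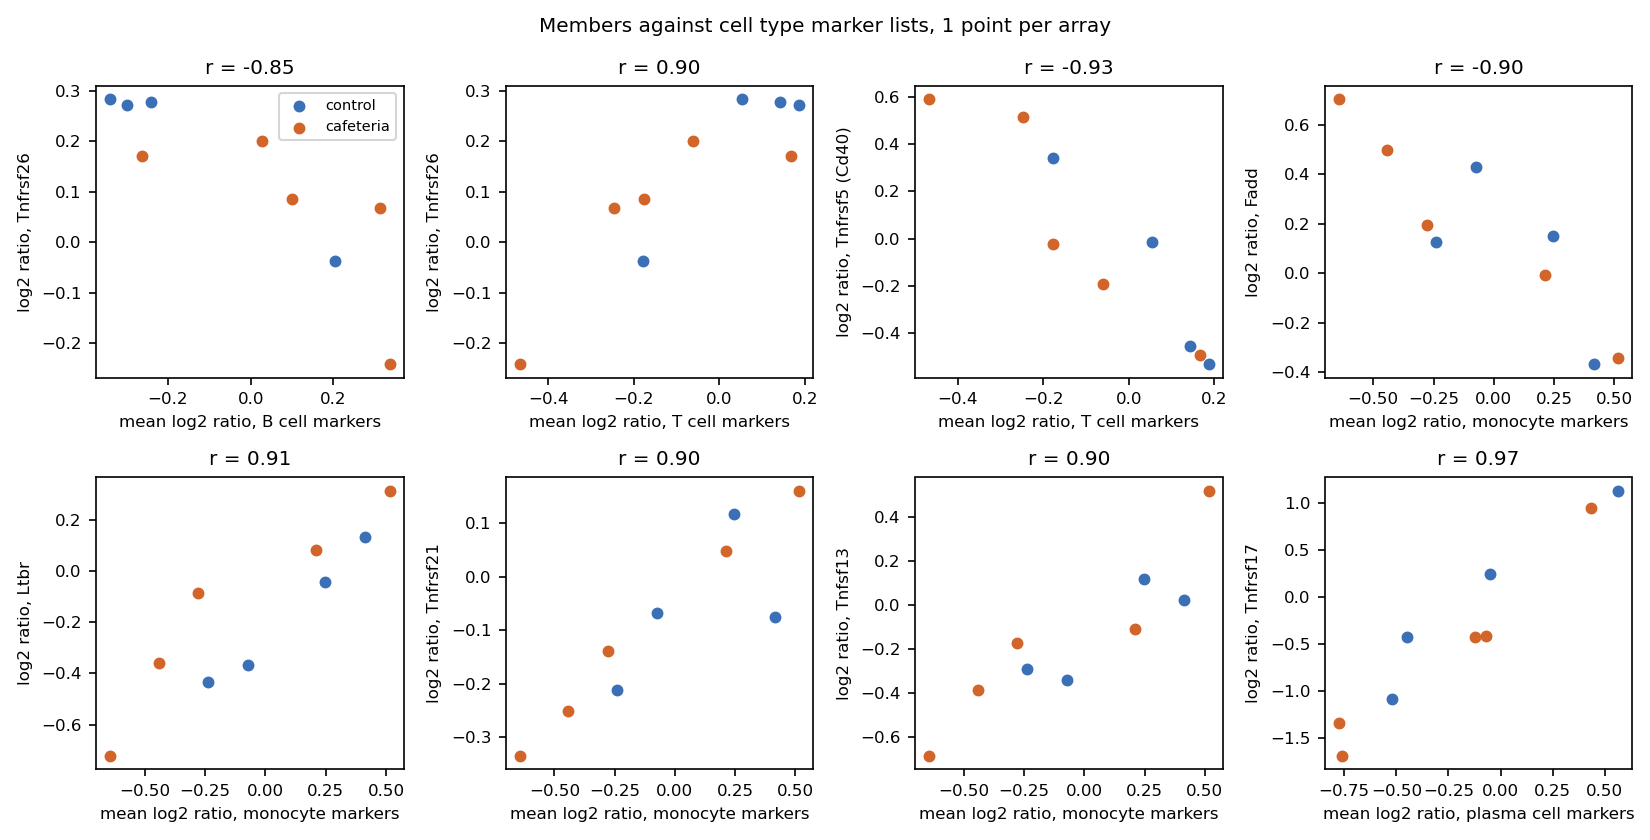
Log2 ratio of a member (vertical) against the mean log2 ratio of a cell type marker list (horizontal), 1 point per array (blue control, orange cafeteria), for the 8 relations that passed an adjusted p under 0.05 by Pearson's r, which is printed above each panel. Points of both diets lie along the same trend in each panel.

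The marker lists themselves did not pass the adjusted threshold in any gene. Of all probes, 5.7% had an unadjusted p under 0.05 with limma, and in 2.03% the groups did not overlap. All 10 T cell markers were lower in the cafeteria group (1 at an unadjusted p under 0.05), all 8 B cell markers were higher (0), and all 8 cytotoxic and NK cell markers were higher (3). Of 7 monocyte markers 6 were lower (1), all 6 platelet markers were lower (0), 3 of 4 neutrophil markers were lower (0), and 3 of 4 plasma cell markers were lower (0). All 5 erythroid markers were higher, each at an unadjusted p under 0.05, and their mean was -1.19 to -0.69 in the controls and -0.63 to -0.0047 in the cafeteria-fed animals, so that the groups did not overlap. Of the markers on the array, all 10 of T cells, all 8 of B cells, 7 of 8 of monocytes and all 6 of platelets were tested. So were all 5 of erythroid cells and 4 of 7 of neutrophils, cells that a Ficoll preparation is meant to remove or reduce. Among the neutrophil markers, Mpo and Cxcr2 were not well above background on any array, and Ltf was on 3. The part of any of these lists in the differences of members was not tested.

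Some genes of the family carry other names and fell outside the naming rule. Of those listed, 8 had a probe and 6 were tested, with 4 higher and 2 lower in the cafeteria group, and Eda and Traip were not well above background on any array. Cd40lg (CD40 ligand, made by helper T cells) was the only one of the 6 at an unadjusted p under 0.05, at -0.25 (SE 0.10, unadjusted p = 0.028, adjusted p = 0.786), with log2 ratios of -0.17, -0.42, -0.28 and -0.29 in the controls and -0.57, -0.23, -0.65, -0.58 and -0.68 in the cafeteria-fed animals. Cafeteria 4 lay among the controls and the other 4 cafeteria animals lay below all of them. An unadjusted p under 0.05 was found in 5.7% of all probes. Faslg, the ligand of Fas, differed by 0.090.

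Downstream, 35 of 43 listed genes of the TNF receptor complex and of death signalling were tested. Of these, 22 were higher and 13 lower, with a median log2 fold change of 0.049. At an unadjusted p under 0.05 there was 1 of the 35, a smaller share than the 5.7% of all probes. It was Nsmaf, which binds Tnfrsf1a and activates neutral sphingomyelinase, at 0.20 (SE 0.089, unadjusted p = 0.0458, adjusted p = 0.859), with log2 ratios of 0.025, -0.21, -0.30 and -0.011 in the controls and 0.0062, 0.10, 0.13, 0.20 and -0.049 in the cafeteria-fed animals. Its groups overlapped.

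Of 25 listed transcripts that TNF is known to induce, 22 were tested, with 14 higher, 8 lower and a median log2 fold change of 0.027. At an unadjusted p under 0.05 there was 1 of the 22, a smaller share than the 5.7% of all probes. It was Ccl2, the chemokine that attracts monocytes, at -0.98 (SE 0.26, unadjusted p = 0.00351, adjusted p = 0.533). Its log2 ratios were -0.25, 0.46, 0.064 and -0.16 in the controls and -1.60, -0.27, -1.27, -0.51 and -1.09 in the cafeteria-fed animals. The cafeteria animals were all below the lowest control, and the groups likewise did not overlap in 2.03% of all probes. Its adjusted p, like those of all genes in these lists, did not pass with limma and Benjamini-Hochberg adjustment.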

How the data were processed

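PBMC RNA of 9 rats (4 control, 5 cafeteria) was measured on 2-colour Agilent rat arrays, 1 per rat, with groups taken from the sample titles. Intensities of each spot and of its local background in both dyes, and flags that mark detected or irregular spots, were deposited as read with Feature Extraction 9.5.1.1, per the file headers. The same files hold the software's log10 ratio of Cy5 over Cy3 after its own background and dye correction, per the file headers. The authors also deposited a value table on a log2 scale, whose use of the reference is not stated. The genome build is rn4, per the file headers.

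Background was corrected by normexp (offset 50) and ratios by loess within arrays, with limma 3.58.1 in R 4.3.3. Spots whose local background exceeded 2 times the array's median (0 to 87 per array) were left out first: on arrays with a few very bright backgrounds the normexp fit drew ratios of dim probes toward 0 (SD 0.030 on control 4 and 0.016 on cafeteria 4, against 0.17 and 0.14 without those spots). This step was added after seeing the data. Flagged spots were dropped, and repeated spots averaged.

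Probes with Cy5 well above background on at least 4 arrays (25808) were tested with limma, cafeteria against control, two-sided, with Benjamini-Hochberg adjustment over all of them. For genes with 2 probes, the brighter stood for the gene in medians. Values by array were given for the 4 genes of lowest p in each class, the main TNF, lymphotoxin and Fas receptor genes with their adaptors, and members whose groups did not overlap. Relations to marker lists used exact permutation over arrays (scipy 1.17.1) with Benjamini-Hochberg adjustment over 264 relations, and were chosen after seeing the data. The limma and correlation steps were tested on simulated data. Array number limits the precision. Alternatives covered background, normalization, reference, filter, slide, replicate number, variance model and each array left out. Members and gene lists were chosen with earlier results of these data known, and the interacting proteins were set apart after seeing the names.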

Additional observations from a re-analysis of the deposited data

Results flagged for a closer look

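Within the groups of 4 or 5 arrays, the highest or lowest array was compared with the rest by Dixon's ratio of gap to range for the 21 members given by array. Of the 42 groups 4 stood out, with ratios of 0.83 to 0.96, where chance gives about 1 in 20. Traf6 on control 7 had a log2 ratio of -0.63, against 0.066 to 0.17 in the other controls. Tnfsf12 on control 7 was -0.29, against -0.12 to -0.091. Tnfrsf26 on control 4 was -0.037, against 0.27 to 0.28. Knstrn (Traf4af1) on cafeteria 4 was -0.016, against -0.16 to -0.13 in the other cafeteria arrays.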

How the results depend on the processing

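No member passed the adjusted threshold in any of the 24 alternatives. Over the whole array, limma called 2 probes with normexp fitted on every spot (added after seeing the data), 2 without control 1 and 2 without control 13, and 0 in the other alternatives. The count of members at an unadjusted p under 0.05, 3 in the report, was 1 with no background correction, 1 with median centring, 1 from Cy5 alone, 1 with the replicate block, and 1 to 5 when single arrays were left out (1 without control 4, 1 without cafeteria 7 and 5 without control 7). The median log2 fold change of ligand genes was -0.073 from Cy5 alone, 0.11 in the authors' deposited table and -0.15 with slide as a block. That of receptor genes was 0.064 with median centring and 0.11 in the authors' table, and that of adaptor genes was 0.12 and 0.14. The slide block rests on the pairs of slides 3 and 5 alone. The median of all probes, 0.0070 in the report, was 0.064 with median centring and 0.13 in the authors' table. By the software's weaker criterion, positive and significant, a median of 42 member probes was detected per array in place of 38. The cause of these shifts was not tested. For the named members, 55 of 499 comparisons with an alternative had the opposite sign, and in 0 of the 55 was the unadjusted p under 0.05 on either side. Arrays with the same replicate number deviated with correlations of -0.057, 0.033, 0.13 and -0.18 over the array. These values did not show a pairing of the animals by number, and cannot exclude one that touches few genes. Dim probes (Tnf, Tnfrsf8) were well above background on only 5 and 4 arrays, which limits what their ratios can show. Lta and Knstrn were also dim, with a mean log2 signal of 6.58 and 6.84, against 6.41 for Tnf.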

Other observations

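The erythroid marker Ahsp, a chaperone of globin, differed by 1.09 (SE 0.21, limma adjusted p = 0.386), and Hemgn by 0.64 (SE 0.12, limma adjusted p = 0.386), both higher in all 5 cafeteria animals than in any control. Groups likewise did not overlap in 2.03% of all probes. Bcl11b, a transcription factor of T cells, differed by -0.51 (SE 0.16, limma adjusted p = 0.595).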
